A study of Homo sapiens with 14 samples.

Results

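The genes described here are antisense noncoding RNA genes, those whose symbol is the symbol of a neighbouring gene followed by -AS and a number. They were taken from RNA sequencing of HCT116, a human colon carcinoma cell line. A gene was included when its expected count (the estimated number of reads from that gene) was 10 or more in all 14 libraries, with OIP5-AS1 and SLC7A11-AS1 left out. This gave 171 genes, of 1787 with such a symbol and of 78686 gene identifiers in each table. The members were thus chosen by their count in every library, and their being detected is not a result.

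All 14 libraries came from cells that carry osTIR1(F74G), an auxin receptor subunit with a changed ligand pocket, and SAF-A (the product of HNRNPU) fused to mAID and Halo tags. The auxin analog 5-Ph-IAA directs a mAID-tagged protein to the proteasome in such cells. The controls carry the same tags and transgene. In the time-course set, cells received 5-Ph-IAA for 3 h or 12 h, or the vehicle DMSO. In the Nutlin set they received Nutlin (which stabilises p53 by inhibiting MDM2), 5-Ph-IAA, a combination of the agents, or vehicle, and the treated libraries are labelled 3 h. Each of the 7 groups had n = 2 libraries, and nothing in the labels says whether these came from separate cultures, so p-values measure only the spread between libraries. The labels do not say how many clones the line comes from.

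An antisense gene is transcribed from the strand opposite a second gene, the sense gene. Many start at a shared promoter and run away from the sense gene, while others run into it from the far end or lie within it. Some such RNAs act on the sense gene's chromatin or RNA, and many are short-lived and turned over by the nuclear RNA exosome. SAF-A is an abundant nuclear protein that binds RNA and chromatin and is known for its part in holding noncoding RNA at chromosomes and in splicing.

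Library totals were 1.265e+07 to 3.514e+07 expected counts, except for replicate 2 at 12 h, which held 3.535e+06. That library had the lowest count of 170 of the 171 members, and it alone kept out a further 138 -AS genes. HNRNPU RNA, which the degron does not target, stood at 509 and 544 CPM (counts scaled to library size) in time-course vehicle, 524 and 547 at 3 h and 671 and 636 at 12 h. HNRNPU-AS1 found no matched symbol and was not analysed here. Of 10 markers of colon epithelium, 6 reached a mean level of 1 TPM (TPM being a level per length), while CDH17, LGALS4, TFF3 and VIL1 were under 1 TPM in every library. Of 10 markers of other cell types, 1 (COL1A1) reached a mean of 1 TPM, and together they summed to 0.42 to 2.16 TPM. As in any bulk sample, fewer cells of a type and less RNA per cell cannot be told apart.

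Promoter sequences are shown for 3 members whose level, alone or against the sense gene, moved at 12 h and whose window holds no annotated coding sequence or UTR. In GENCODE 29 the GABPB1-AS1 window lies within an exon of the noncoding GABPB1-IT1, and 22 bases of the HEXIM2-AS1 window lie in an exon of AC138150.1, both on the minus strand. Each is a 300-base RefSeq window (GRCh38.p14) on the strand of the antisense gene, with the 250 bases before its start in lower case and its first 50 bases in capitals. GABPB1-AS1 lies at chr15:50353924-50354223 on the plus strand, PRR7-AS1 at chr5:177447895-177448194 on the minus strand and HEXIM2-AS1 at chr17:45161489-45161788 on the minus strand.
GABPB1-AS1: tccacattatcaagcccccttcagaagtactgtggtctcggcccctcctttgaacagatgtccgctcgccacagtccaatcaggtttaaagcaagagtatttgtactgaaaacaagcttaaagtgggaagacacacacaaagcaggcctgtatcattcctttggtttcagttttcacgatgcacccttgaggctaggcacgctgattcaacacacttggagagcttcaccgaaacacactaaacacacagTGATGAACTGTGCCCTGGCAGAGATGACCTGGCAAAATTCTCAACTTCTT
PRR7-AS1: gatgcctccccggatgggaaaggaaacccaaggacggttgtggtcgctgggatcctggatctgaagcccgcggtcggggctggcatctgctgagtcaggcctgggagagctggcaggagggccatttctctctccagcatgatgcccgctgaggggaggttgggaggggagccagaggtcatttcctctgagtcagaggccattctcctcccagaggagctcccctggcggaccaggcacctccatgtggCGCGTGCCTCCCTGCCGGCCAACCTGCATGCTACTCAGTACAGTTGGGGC
HEXIM2-AS1: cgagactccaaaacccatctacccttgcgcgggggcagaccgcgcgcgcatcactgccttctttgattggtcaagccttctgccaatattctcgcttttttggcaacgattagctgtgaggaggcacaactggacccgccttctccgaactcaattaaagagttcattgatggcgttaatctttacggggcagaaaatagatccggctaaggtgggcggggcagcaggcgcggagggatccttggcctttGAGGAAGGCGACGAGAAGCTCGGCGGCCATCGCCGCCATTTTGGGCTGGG

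The 3 windows differ in CpG content, with 6 CpG in that of GABPB1-AS1, 11 in that of PRR7-AS1 and 23 in that of HEXIM2-AS1. The start of the sense gene lies 1024, 381 and 337 bases away in RefSeq, outside each window. RefSeq starts can differ from those of GENCODE 29, which are used for the arrangements below. RefSeq windows were found for 144 members, 176 windows in all. Their median was 25 CpG, against 14 over all 34943 windows. The letters CCGGAAG (the core bound by ETS factors such as GABP), searched on both strands, were in 28 of the members' windows (15.9%) and in 10.2% of all windows. The letters TATAAA were in 3.98% of the members' windows and in 11.6% of all windows. None of these letters is in the 3 windows printed. The set of all windows was not limited to genes expressed in these cells, whereas the members were chosen by their counts. No set of windows matched for expression or for a nearby second start was compared, so these differences are not read as a trait of antisense promoters.

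The GENCODE 29 annotation placed 170 of the 171 members. In 52 the sense and antisense starts lay within 1000 bases of each other, head to head. In 26 the starts lay farther apart and the far ends of the 2 genes pointed away from each other. Exons of 21 of these 26 overlapped exons of the sense gene, so most of them ran through each other before parting. In 46 the genes met tail to tail, 25 antisense genes lay inside the sense gene, and 19 reached across it. FAM131B-AS2 lay on the same strand as the gene it is named for, HOXB-AS3 has no gene of its exact name, and SVIL-AS1 was not placed. Exons of 131 members overlapped exons of the sense gene, by a median of 332 bases. Of the 170 placed members, the annotation calls 127 antisense, 21 processed transcripts and 17 lincRNAs, and it calls KRT10-AS1 and KCNJ5-AS1 protein coding.

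Most members were expressed at low levels, with a median of 3.75 TPM (mean over the 14 libraries) against 6.25 TPM for the sense genes. The levels ran from 0.247 TPM for PPM1F-AS1 to 290 TPM for TUBA1B-AS1, with 104 members under 5 TPM and 24 at 10 TPM or more. TUBA1B-AS1 had a mean effective length of 256 bases, against 2657 for FGD5-AS1. Its place by TPM is not its place by counts, and in time-course vehicle its CPM was below that of FGD5-AS1. Among the highest were also NUTM2A-AS1 (24.1 TPM) and FGD5-AS1 (26.3 TPM), while CLN8-AS1 and PRRT3-AS1, among the higher ones of their arrangement, had 8.25 and 8.73 TPM. After TUBA1B-AS1 came THAP9-AS1 at 45.7 TPM, EPB41L4A-AS1 at 35.8, PAX8-AS1 at 32.6, KRT10-AS1 at 31.9 and MAPKAPK5-AS1 at 26.7. This order is of means over both sets and differs within them: KRT10-AS1 (43.3 TPM) came before THAP9-AS1 (41.6) in time-course vehicle, and after FGD5-AS1 (28.2) and NUTM2A-AS1 (27) in Nutlin-set vehicle, at 25.9. EPB41L4A-AS1 is the host of a small nucleolar RNA. The spread over the 14 libraries (SD) was 6.95 TPM for THAP9-AS1, 3.42 for EPB41L4A-AS1, 4.21 for PAX8-AS1, 7.33 for KRT10-AS1 and 2.37 for MAPKAPK5-AS1. This spread takes in the treatments and both sets and is not one between replicates. Whether neighbours in the order differ in level was not tested. Of the 170 members with a sense gene in the tables, 68 had a higher mean TPM than the sense gene. This was so of 14 of the 19 that reach across the sense gene and of 13 of the 52 that start head to head. The count rule applied to the antisense genes only, and 134 sense genes had 10 or more counts in all 14 libraries. Levels of chosen genes are thus set beside those of genes not so chosen, and the comparison is not read as a trait of antisense genes. THAP9-AS1 exceeded THAP9, which derives from a transposase, by 45.7 to 2.83 TPM, and PAX8-AS1 exceeded PAX8, a transcription factor of thyroid and kidney, by 32.6 to 0.957 TPM. TUBA1B-AS1 stood far below TUBA1B, an alpha-tubulin gene, which averaged 1063 TPM.

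**Figure D1:**
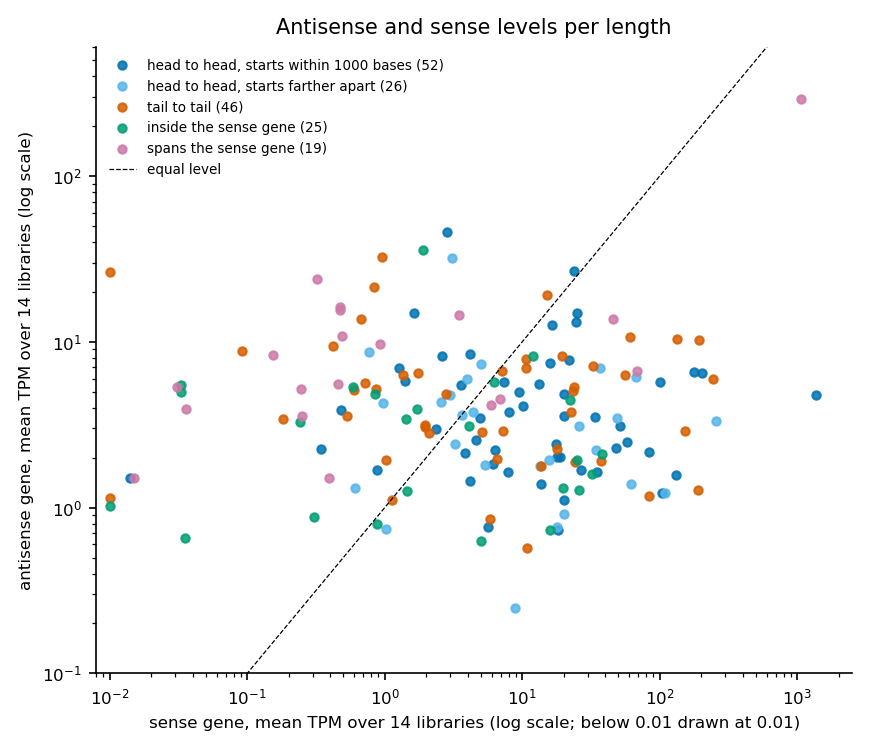
Mean TPM over the 14 libraries of each antisense gene (vertical, log scale) against its sense gene (horizontal, log scale), coloured by how the genes lie to each other. Points above the dashed line are members with a higher level than their sense gene, and the point at the upper right is TUBA1B-AS1. FAM131B-AS2 and SVIL-AS1 are not drawn.

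The quantification can divide a read between genes, which leaves expected counts that are not whole. Whether overlap or other shared sequence led to this was not tested. A member's expected count was not a whole number (to within 0.005) in at least 1 library for 135 of the 171 members. This held for 103 of the 121 members whose exons overlap a gene on the opposite strand only (85.1%), and for 10 of the 26 whose exons overlap no gene (38.5%). Among protein-coding genes of the same count minimum the shares were 61% and 16.5%. The library kit marks the strand, but the strand setting of the counting is not given in the sources used here, so reads of an antisense gene and of its overlapping partner cannot be fully told apart. TUBA1B-AS1, whose exons share 1309 bases with TUBA1B, had an expected count that was not whole in any library.

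The level of TUBA1B-AS1 differed between the 2 sets. It was 65 and 79.2 TPM in the time-course vehicle libraries and 437 and 506 TPM in the Nutlin-set vehicle libraries. All 6 time-course libraries (65 to 111 TPM) lay below all 8 Nutlin-set libraries (391 to 506 TPM). TUBA1B did not move with it, at a mean of 1134 TPM in the first vehicle group and 988 TPM in the second. TUBA1B-AS1 made up 7.11% of the summed TPM of the 171 members in time-course vehicle and 33.6% in Nutlin-set vehicle. These are shares of levels per length, for a gene with a mean effective length of 256 bases, and are not shares of counts. Of the other members, BCDIN3D-AS1 was 3.89-fold and PAXBP1-AS1 2.39-fold higher in the Nutlin-set vehicle, and ZNF436-AS1 was 3.66-fold higher in the time-course vehicle. In all, 7 members were more than 2-fold higher in the Nutlin-set vehicle and 2 in the time-course vehicle. The median ratio over the members was 1.07. The share of all genes past this cut is not given here, so these counts are not read as a trait of the members. Each comparison below stays within a set or compares changes.

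At 12 h of 5-Ph-IAA, 8 antisense genes rose and 1 fell against vehicle. PPM1F-AS1, PRR7-AS1, SLC9A3-AS1, GPRC5D-AS1, TAGAP-AS1, PITPNA-AS1, NOP14-AS1 and GABPB1-AS1 rose, by 0.46 to 1.54 on the log2 scale, and KRT10-AS1 fell. The 9 calls (edgeR's quasi-likelihood test, Benjamini-Hochberg adjusted p under 0.05 over 19049 genes) are 5.26% of the members, against 11.4% of all genes tested. By direction, 3.39% of all genes were called higher and 7.97% lower.

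PPM1F-AS1 (ENSG00000224086.7, chr22:21938293-21977632, plus strand) runs against PPM1F, which encodes a protein phosphatase. It had 9.08 and 6.46 CPM in vehicle, 9.12 and 7.55 at 3 h, and 16.9 and 17.5 at 12 h. Both libraries at 12 h lay above the other 4, and the mean went from 7.77 ± 1.85 CPM (SD, n = 2) in vehicle to 17.2 ± 0.451 at 12 h. The change of 1.14 (SE 0.218, edgeR adjusted p = 0.00572) passed the threshold in all 9 alternatives, 4 of which leave out a library. Its low TPM beside these counts goes with its length, since the mean effective length in the tables was 34491 bases, 87.7% of the gene's span in GENCODE 29, and 815 bases of its exons lie over exons of PPM1F. PPM1F itself had 37 and 30.6 CPM in vehicle and 28.4 and 33.4 at 12 h, with groups that overlap.

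PRR7-AS1 (ENSG00000246334.4, chr5:177438503-177447699, minus strand), a neighbour of PRR7, had 2.93 and 1.68 CPM in vehicle, 4.31 and 3.82 at 3 h, and 7.15 and 6.03 at 12 h. Its change of 1.54 (SE 0.357, edgeR adjusted p = 0.016) was the greatest of the 9, and at 3 h it stood between vehicle and 12 h in both libraries. SLC9A3-AS1 (ENSG00000225138.8, chr5:473236-480884, plus strand) lies inside SLC9A3, the gene of an intestinal sodium-proton exchanger. It had 5.29 and 4.43 CPM in vehicle, 6.8 and 6.8 at 3 h, and 9.68 and 9.59 at 12 h, a change of 0.99 (SE 0.237, edgeR adjusted p = 0.0185). Its libraries at 12 h were also above all others, and its expected count was whole in all 14 libraries. Both genes passed the threshold in 7 of 9 alternatives, and in 2 of the 4 that leave out a library.

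TAGAP-AS1 (ENSG00000271913.10, chr6:158988178-159088114, plus strand) reaches across TAGAP, which itself stood at 0.154 TPM. Its level was 10.6 and 10.6 CPM in vehicle, 11.2 and 12.1 at 3 h, and 17.7 and 17.5 at 12 h, a change of 0.73 (SE 0.166, edgeR adjusted p = 0.0136). The spread within each group was small beside this step. GPRC5D-AS1 (ENSG00000247498.12, chr12:12927726-12984645, plus strand) reaches across GPRC5D, an orphan receptor gene at 0.491 TPM. It had 6.87 and 7.17 CPM in vehicle, 5.1 and 7.25 at 3 h, and 14.9 and 10.1 at 12 h, a change of 0.89 (SE 0.252, edgeR adjusted p = 0.0388). The libraries at 12 h differed by more than those of the other groups, and the change passed in 1 of the 4 fits without a library, with values from 0.54 (without replicate 1 at 12 h) to 1.08.

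GABPB1-AS1 (ENSG00000244879.11, chr15:50354959-50372202, plus strand) starts head to head with GABPB1, which encodes the beta subunit of the transcription factor GABP. It had 59.8 and 53 CPM in vehicle, 47 and 55.7 at 3 h, and 81.8 and 70.7 at 12 h. The groups at vehicle and 3 h overlap and those at 12 h lie above both, with a change of 0.46 (SE 0.119, edgeR adjusted p = 0.0273). The change passed in 7 of 9 alternatives. With a library left out it ran from 0.34 (without replicate 1 at 12 h) to 0.57. GABPB1 had 40.3 and 36.8 CPM in vehicle and 34.2 and 32.3 at 12 h, a change of -0.20 that missed the threshold (edgeR adjusted p = 0.306).

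NOP14-AS1 (ENSG00000249673.10, chr4:2934899-2961738, plus strand) meets NOP14, a gene of small ribosomal subunit assembly, tail to tail. It had 18.1 and 16.1 CPM in vehicle, 21.2 and 23.9 at 3 h, and 24.2 and 24.1 at 12 h (0.50, SE 0.146, edgeR adjusted p = 0.0469). PITPNA-AS1 (ENSG00000236618.4, chr17:1516931-1518096, plus strand) meets PITPNA, a phosphatidylinositol transfer protein gene, in the same way. It had 9.86 and 8.26 CPM in vehicle, 12.5 and 11.6 at 3 h, and 15 and 12.6 at 12 h (0.64, SE 0.191, edgeR adjusted p = 0.0495). In both, the libraries at 3 h already lay above vehicle, and each passed in 4 of 9 alternatives. KRT10-AS1 (ENSG00000167920.13, chr17:40819106-40836274, plus strand) was the 1 member that fell. Its promoter windows reach into coding sequence of the epidermal keratin gene KRT10, on the opposite strand. KRT10-AS1 had 32.4 and 40.5 CPM in vehicle, 31.8 and 34.4 at 3 h, and 26.9 and 24.1 at 12 h (-0.49, SE 0.142, edgeR adjusted p = 0.0457). It passed in 3 of 9 alternatives, with a change of -0.31 without vehicle replicate 2.

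**Figure D2:**
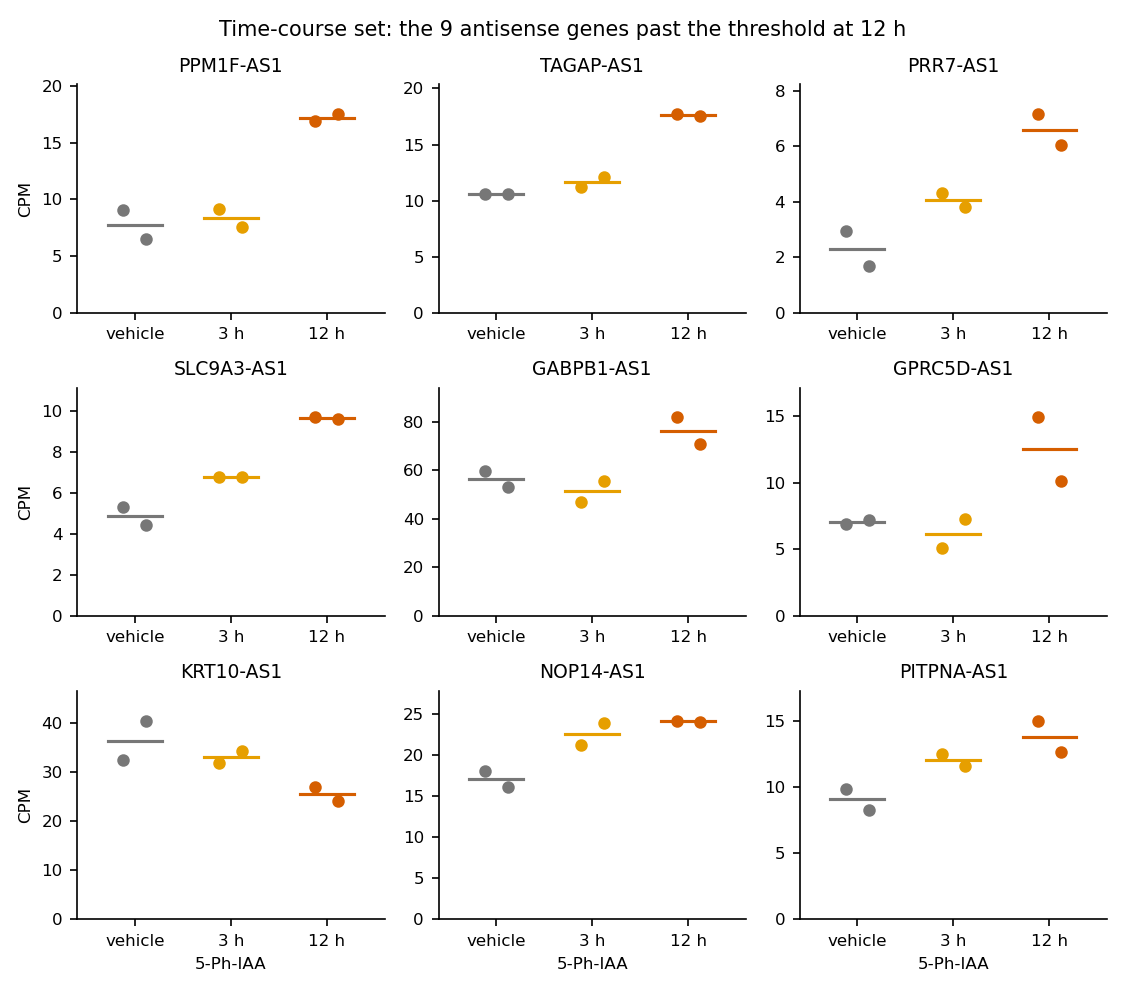
CPM of the 9 antisense genes past the threshold at 12 h, in each library of the time-course set (points) with the mean of each group (line). The vertical axes start at 0. In 8 panels both libraries at 12 h lie above those of vehicle, and in that of KRT10-AS1 both lie below.

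The number of calls depended on single libraries, and the shares of all genes called in the fits without a library are not given here. It was 15 without replicate 2 at 12 h, with 7 of the 9 among them, and 3 without replicate 1 at 12 h, of which PPM1F-AS1 was the 1 shared. Without vehicle replicate 2 it was 4. All 9 called members have exons over a gene on the opposite strand, and of the 30 placed members without such exons none was called (edgeR; 3 had an unadjusted p under 0.05). Most placed members have such exons, and at the members' share of calls few of the 30 would be called in any case. The absence of calls there therefore does not tie the calls to overlap.

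Members were more often higher than lower at 12 h, and the choice of members bears on this. The change was above 0 in 113 of 171 members (median 0.14), against 49.6% of all genes (median -0.00). Both libraries at 12 h lay above both vehicle libraries in 61 members (35.7%) and below them in 25 (14.6%), against 22.9% and 27.9% of all genes. But a member had to reach 10 counts in replicate 2 at 12 h, by far the shallowest library. Among the 138 -AS genes that this library alone kept out, 63 changed upward (45.7%, median -0.04). With them, 176 of 309 were above 0 (57%, median 0.09). From replicate 1 at 12 h alone, 97 of the 171 members (56.7%, median 0.10) and 75 of the 138 others (54.3%, median 0.07) were above 0. From replicate 2 alone the shares were 67.3% (median 0.20) and 35.5% (median -0.36). The number of calls was 9 also with all 309 genes and with the 98 members of 20 or more counts.

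**Figure D3:**
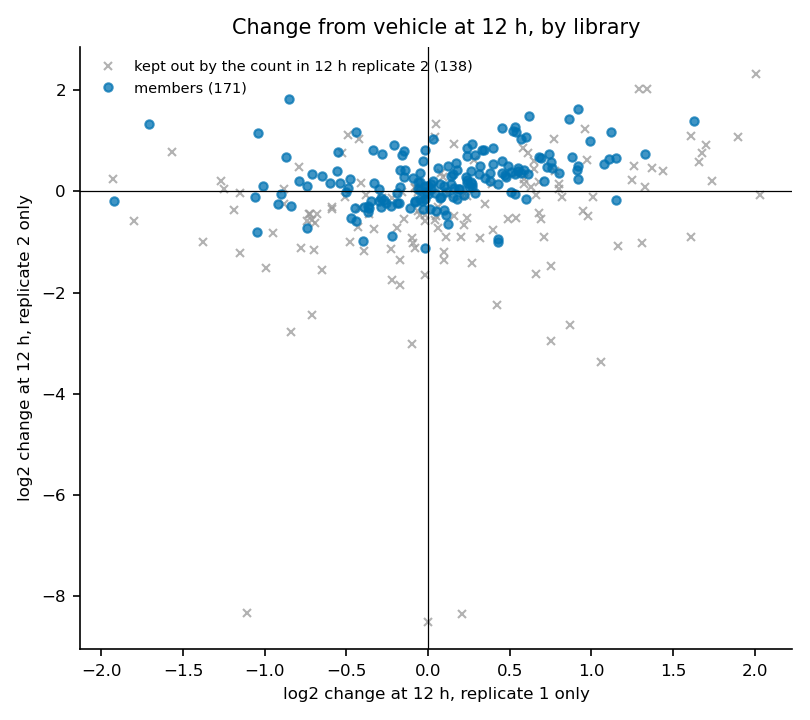
log2 change from vehicle estimated from 12 h replicate 1 only (horizontal) and from replicate 2 only (vertical), for the 171 members (filled) and for the 138 -AS genes that the count in replicate 2 kept out (crosses). With replicate 2 only, 49 of the 138 crosses and 115 of the 171 filled points lie above 0.

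The arrangements of the genes were read side by side, with no test between them. The median change at 12 h was 0.24 for the 46 tail-to-tail members, 0.23 for the 19 that reach across the sense gene, 0.16 for the 52 that start head to head, 0.11 for the 26 with starts farther apart and 0.01 for the 25 inside the sense gene. Calls numbered 2, 2, 1, 3 and 1 in the same order. Some well-described members missed the threshold. FGD5-AS1 (109 and 103 CPM in vehicle, 83.7 and 91.8 at 12 h) had a change of -0.29 and an edgeR adjusted p of 0.053. LOXL1-AS1 (5.95 and 7.61 CPM, then 3.27 and 3.84) had -0.97 and an edgeR adjusted p of 0.0729. MAPKAPK5-AS1, MCM3AP-AS1, PSMA3-AS1, THAP9-AS1, TMPO-AS1, WAC-AS1, EPB41L4A-AS1 and PAX8-AS1 had changes between -0.21 and 0.23, with edgeR adjusted p from 0.2 to 0.908.

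The ratio of antisense to sense RNA was tested next, since it asks whether the 2 genes of a pair moved apart. At 12 h the ratio changed in 13 of 159 member pairs, rising in 11 and falling in 2 (limma on the log2 ratio, adjusted p under 0.05 over all 585 -AS pairs). Of all pairs 2.74% were called, 2.22% as higher and 0.513% as lower, and the members made up 13 of these 16 calls. The antisense genes of member pairs were chosen by their counts in every library, replicate 2 at 12 h included. Their sense genes and the other pairs were not so chosen. How this choice bears on the members' share of calls and on the 11 rises was not tested. Neither is therefore read as a trait of the members. The 2 lists of 12 h calls shared PPM1F-AS1 and GABPB1-AS1, 2 of 9 and 2 of 13. The sense gene was itself called in 4 of the 13 pairs, each time as lower.

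SLC16A1, which encodes a lactate transporter, had 286 and 302 CPM in vehicle and 217 and 224 at 12 h (-0.42, SE 0.0713, edgeR adjusted p = 0.00315). SLC16A1-AS1, head to head with it, had 3.82 and 3.6 CPM in vehicle and 8.01 and 5.75 at 12 h (0.94, edgeR adjusted p = 0.0566). The pair's ratio rose by 1.49 (SE 0.282, limma adjusted p = 0.00186), with no overlap between groups for either gene. SCAMP1, a gene of a secretory carrier membrane protein, had 69.1 and 66.1 CPM in vehicle, 59.8 and 54.2 at 3 h, and 35 and 33.7 at 12 h (-0.97, SE 0.107, edgeR adjusted p = 0.000372). SCAMP1-AS1 had 4.84 and 4.37 CPM in vehicle and 4.71 and 9.31 at 12 h, and its ratio to SCAMP1 rose by 1.10 (SE 0.294, limma adjusted p = 0.0279), or by 2.03 with no call without replicate 1 at 12 h. The antisense groups of this pair overlap, and the fall of SCAMP1 is the part that was called on its own.

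LAMTOR5, a gene of a lysosomal scaffold of mTORC1 signalling, fell by 0.52 (edgeR adjusted p = 0.0242) while LAMTOR5-AS1 had 11 and 6.37 CPM in vehicle and 12.5 and 11.2 at 12 h. Its ratio rose by 1.13 (SE 0.271, limma adjusted p = 0.0135), was 0.59 without vehicle replicate 2 and 1.67 without vehicle replicate 1, and passed in 2 of 7 alternatives. POC1B, which encodes a centriole protein, fell by 0.51 (edgeR adjusted p = 0.0337) while POC1B-AS1 had 6.04 and 6.43 CPM in vehicle and 9.15 and 8.49 at 12 h. Its ratio rose by 1.09 (SE 0.268, limma adjusted p = 0.0153), and the 2 genes share no exon bases. For PPM1F-AS1 the ratio rose by 1.36 (SE 0.224, limma adjusted p = 0.000341) and for HEXIM2-AS1, beside a gene of an inhibitor of the elongation factor P-TEFb, by 1.45 (SE 0.306, limma adjusted p = 0.0052). The rise of HEXIM2-AS1 rested on replicate 1 at 12 h, without which its ratio changed by 0.00.

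HEXIM2-AS1 had 11.1 and 12.5 CPM in vehicle and 22.4 and 14 at 12 h. TUBA1B-AS1 had 24.3 and 29.4 CPM in vehicle, 28.9 and 32.6 at 3 h, and 43.8 and 30.7 at 12 h. Its ratio to TUBA1B rose by 0.65 and that of GABPB1-AS1 to GABPB1 by 0.69. USP3-AS1, TMEM44-AS1 and THAP9-AS1 rose against their sense genes by 1.08, 1.67 and 1.01. In the last of these pairs the antisense groups overlap, with 66.5 and 71.2 CPM in vehicle and 66.8 and 61.6 at 12 h. Without replicate 1 at 12 h, the ratios of THAP9-AS1 and TMEM44-AS1 turned to -0.20 and -0.82, and that of TUBA1B-AS1 was 0.24. ZNF436-AS1 fell against ZNF436 by 1.61, with 4.24 and 3.33 CPM in vehicle and 1 and 3.29 at 12 h, and SVIL-AS1 fell against SVIL by 0.68. Each passed in 1 of 7 alternatives, and without replicate 1 at 12 h the changes were -0.07 and -0.30.

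The number of ratio calls was 14 without vehicle replicate 1, 11 without vehicle replicate 2, and lower in several other fits. No member pair was called without replicate 1 at 12 h (5 had an unadjusted p under 0.05), or by limma-trend on log2 CPM with a prior count of 2 (22 had). There were 2 with the compared groups only and 10 without replicate 2 at 12 h, 9 of them shared. Of the 13 pairs, 3 have no overlapping exons, namely those of HEXIM2-AS1, POC1B-AS1 and SCAMP1-AS1, and that of SVIL-AS1 was not placed. The ratio is fitted with weights by precision and so need not equal the difference of the 2 genes' changes.

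**Figure D4:**
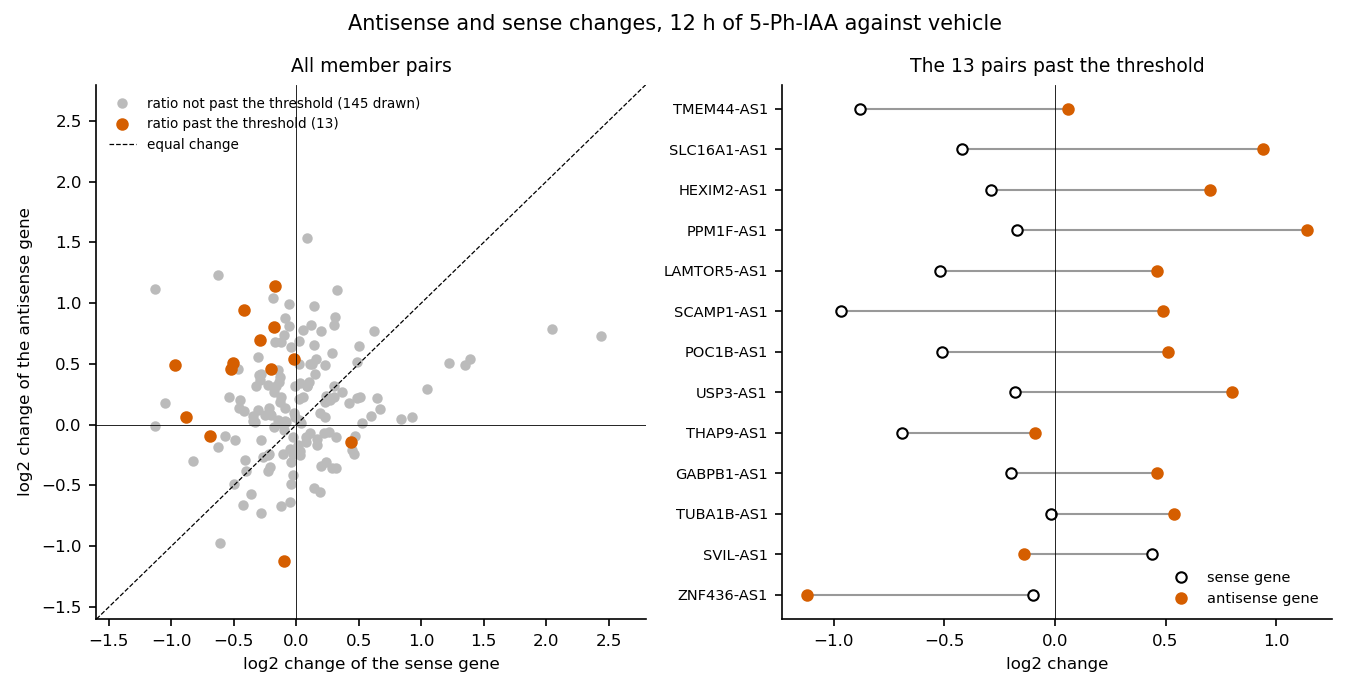
Left, log2 change at 12 h of each antisense gene (vertical) against its sense gene (horizontal), with the pair of OR2A1-AS1 not drawn because OR2A1 lies at -6.40. Right, the changes of both genes in the 13 pairs whose ratio was called: in 11 pairs the antisense point lies to the right of the sense point.

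Sense and antisense changes were then set side by side. Across the 159 pairs at 12 h the changes had the same sign in 82 (51.6%), with Pearson's r = 0.0987. This is a description over pairs that share libraries and depth. The median change was 0.18 for these antisense genes and -0.04 for their sense genes. Only the antisense genes had to reach 10 counts in replicate 2 at 12 h, and the -AS genes which that library alone kept out had a median of -0.04. How this choice bears on the difference between antisense and sense genes was not tested. Of the sense genes 15 of 159 were called at 12 h (9.43%, against 11.4% of all genes), 5 higher and 10 lower. Among the higher ones were GTF3C2 (0.65), WARS2 (0.67), SPEN (0.62), PXN (0.51) and URB1 (0.50), and among the lower ones HMGA2 (-0.63), ARRDC3 (-0.54) and TMPO (-0.49). At 3 h the same sign was seen in 104 of 159 pairs (65.4%, r = 0.141).

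Genes of the nuclear RNA exosome and its adaptors, which turn over many antisense RNAs, were read beside the members. Of 27 tested, 5 were called at 12 h, 1 higher and 4 lower (18.5%, against 11.4% of all genes), with no test of the list. DIS3, the catalytic nuclease of the core complex, fell by 0.50 (SE 0.0866, edgeR adjusted p = 0.00331), and MTREX, the helicase that feeds it, by 0.37. C1D and RBM27 fell by 0.75 and 0.56, and SRRT, which links the cap-binding complex to RNA decay, rose by 0.39. The median over the 27 was -0.00, equal to that of all genes. Against 3 h, 8 members were higher at 12 h and none lower (edgeR; 4 of them among the 9 above), where 8.14% of all genes were called, 2.35% as higher and 5.79% as lower. Of the exosome list, DIS3, RBM27 and EXOSC1 were lower at 12 h than at 3 h. At 3 h, and in each Nutlin-set comparison with vehicle, none of the 27 was called (edgeR; 0 to 3 had an unadjusted p under 0.05).

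At 3 h of 5-Ph-IAA in the time course no member was called, and 0.0682% of all genes were, 0.063% as higher and 0.00525% as lower. By edgeR 11 members had an unadjusted p under 0.05, and DESeq2 called none (7 under 0.05). Here and below, the share of all genes at this unadjusted cut is not given, so such counts are not read as a trait of the members. Without vehicle replicate 1, 1 member was called. Averaged over the 3 h libraries of both sets, a comparison added after seeing the data, again no member was called (edgeR; 13 had an unadjusted p under 0.05, and DESeq2 called none), against 0.0424% of all genes, 0.0371% as higher and 0.0053% as lower. The smallest p belonged to SDCBP2-AS1, TMEM147-AS1 and NOP14-AS1. SDCBP2-AS1 had 7.59 and 6.55 CPM in vehicle and 4.43 and 3.64 at 3 h (-0.81, SE 0.254, edgeR adjusted p = 0.665). TMEM147-AS1 had 21.8 and 21.2 CPM in vehicle and 27.4 and 28.3 at 3 h (0.38, SE 0.121, edgeR adjusted p = 0.68). Their groups do not overlap, and neither gene passed the test over all genes. Median changes were -0.03 for the members and -0.01 for all genes, and 28 members (16.4%) lay above vehicle in both libraries and 36 (21.1%) below, against 18.7% and 20.1% of all genes.

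The ratio of BCDIN3D-AS1 to BCDIN3D, which encodes an RNA methyltransferase, was the 1 pair called at 3 h, of 0.171% of all pairs. BCDIN3D-AS1 had 1.67 and 0.472 CPM in vehicle and 3.05 and 3.31 at 3 h, and BCDIN3D had 9.5 and 11.5 in vehicle and 7.36 and 5.36 at 3 h. The ratio rose by 2.55 (SE 0.53, limma adjusted p = 0.0157). The antisense counts are low and 594 exon bases are shared with the sense gene. The value fell to 1.51 without vehicle replicate 2 and the call was lost there, as it was without either library at 3 h.

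In the Nutlin set 5-Ph-IAA alone called no member, and 0% of all genes. By edgeR 2 members had an unadjusted p under 0.05, and DESeq2 called none (1 under 0.05). DNAH17-AS1 had 2.48 and 3.37 CPM in vehicle, 1.95 and 1.71 with Nutlin, 1.1 and 0.838 with 5-Ph-IAA, and 1.3 and 1.81 with both. Its change with 5-Ph-IAA was -1.57 (SE 0.374, edgeR adjusted p = 1), and in the time course it had 3.82 and 1.71 CPM in vehicle and 2.49 and 3.76 at 3 h. The 3 h change in the Nutlin set is thus not seen in the time course, where the groups overlap, and the difference between sets missed the threshold (-1.76, edgeR adjusted p = 0.714). KLC1-AS1 (-0.71) and JMJD1C-AS1 (-0.67) came next by p. For no member did the 3 h change differ between sets (edgeR; 8 had an unadjusted p under 0.05, DESeq2 called none, and 0.0636% of all genes were called).

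Nutlin alone called no member either, with 0.464% of all genes called, 0.394% as higher and 0.0696% as lower. By edgeR 21 members had an unadjusted p under 0.05, and DESeq2 called none (9 under 0.05). The share of all genes at this unadjusted cut is not given here. The absence of calls rested on single libraries: members were called without Nutlin replicate 1 and also without Nutlin replicate 2. Each of those fits leaves 1 library in a group, and the share of all genes called in them is not given here. ZNF407-AS1 (ENSG00000264247.3, chr18:74591774-74598508, minus strand), head to head with the zinc-finger gene ZNF407, was nearest the threshold. It had 11.9 and 11.9 CPM in vehicle, 17.3 and 20.3 with Nutlin, 13.2 and 12.3 with 5-Ph-IAA, and 17.1 and 18.2 with both. All 4 libraries with Nutlin lay above all 4 without it. Its change with Nutlin was 0.66 (SE 0.139, edgeR adjusted p = 0.0945) and with both agents 0.57 (SE 0.138, edgeR adjusted p = 0.211). These 2 comparisons share the vehicle libraries. Averaged over both arms, a comparison added after seeing the data, the change was 0.57 (SE 0.0977, edgeR adjusted p = 0.0202). It was the 1 member called there, against 1.44% of all genes (0.956% higher and 0.487% lower). It passed with DESeq2 and without either Nutlin library too (adjusted p 0.0168, 0.000597 and 0.00345), but not without any 1 of the other 6 libraries (adjusted p from 0.104 to 0.147, change from 0.54 to 0.59). ZNF407-AS1 is listed with whole counts in all 14 libraries and shares no exon bases with ZNF407, which had 35.8 and 34.7 CPM in vehicle and 32.1 and 27.3 with Nutlin.

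PAXBP1-AS1 had 11.5 and 14 CPM in vehicle and 9.05 and 6.94 with Nutlin (-0.68, SE 0.18, edgeR adjusted p = 0.202). SLC38A4-AS1 had 11.5 and 11.5 CPM in vehicle and 17 and 15.5 with Nutlin (0.49, SE 0.137, edgeR adjusted p = 0.228). With both agents the groups of SLC38A4-AS1 did not overlap either, at 14.3 and 13.5 CPM. TMPO-AS1, beside a gene of a nuclear lamina protein, had 4.04 and 4.2 CPM in vehicle and 2.96 and 2.13 with Nutlin (-0.70, edgeR adjusted p = 0.389). The libraries with Nutlin lay apart from vehicle in 47 members upward (27.5%) and 25 downward (14.6%), against 18.3% and 17.8% of all genes, and the median change was 0.05 against -0.00.

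The sense genes of the members gave calls under Nutlin where the antisense genes did not. ARRDC3, an arrestin-domain gene, had 93.4 and 95.3 CPM in vehicle and 142 and 191 with Nutlin (0.82, SE 0.129, edgeR adjusted p = 0.0265). ARRDC3-AS1 had 3.85 and 3.67 CPM in vehicle and 3.9 and 4.2 with Nutlin. ZNF674 had 8.08 and 9.14 CPM in vehicle and 16.4 and 18 with Nutlin (SE of the log2 change 0.16, edgeR adjusted p = 0.027), against 3.65 and 3.45, then 4.13 and 4.26, for ZNF674-AS1. IER3, an early response gene, was the third of 158 sense genes called (0.51, edgeR adjusted p = 0.0435). The 3 are 1.9% of the sense genes, against 0.464% of all genes. No ratio of a member pair was called with Nutlin, 5-Ph-IAA or both, of 498 pairs tested in this set (limma; 0.201%, 0% and 0% of all pairs called, with 21, 1 and 18 member pairs at an unadjusted p under 0.05, and none called by limma-trend). Without Nutlin replicate 1, 2 ratios were called with Nutlin. That the changes of these pairs differ was therefore not shown.

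5-Ph-IAA with Nutlin called no member, against 0.325% of all genes, 0.284% as higher and 0.0406% as lower (edgeR; 19 members had an unadjusted p under 0.05, and DESeq2 called none, with 4 under 0.05). After ZNF407-AS1 the smallest p belonged to PSMA3-AS1 and OR2A1-AS1. PSMA3-AS1, beside a proteasome subunit gene, had 20.1 and 16.9 CPM in vehicle, 15.3 and 15.8 with Nutlin, 19.5 and 20.3 with 5-Ph-IAA, and 24.3 and 24.2 with both (0.39, SE 0.125, edgeR adjusted p = 0.45). OR2A1-AS1 had 6.06 and 5.02 CPM in vehicle and 9.37 and 8.59 with both (0.69, SE 0.231, edgeR adjusted p = 0.49). The change was above 0 in 111 of the 171 members (64.9%, median 0.11), and in 89 of the 138 -AS genes that 12 h replicate 2 kept out (64.5%, median 0.18), against 49.6% of all genes. Both libraries lay above vehicle in 64 members (37.4%) and below in 22 (12.9%), against 22.7% and 22.3% of all genes. The interaction of the 2 agents called no member and 0% of all genes (edgeR; 5 members had an unadjusted p under 0.05, and DESeq2 called none, with 2 under 0.05). Without Nutlin replicate 1 it called some members, in a fit that leaves 1 library in a group. GABPB1-AS1 had the smallest p there, with 93.5 and 101 CPM in vehicle, 90.9 and 68 with Nutlin, 94.6 and 90.1 with 5-Ph-IAA, and 113 and 117 with both.

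**Figure D5:**
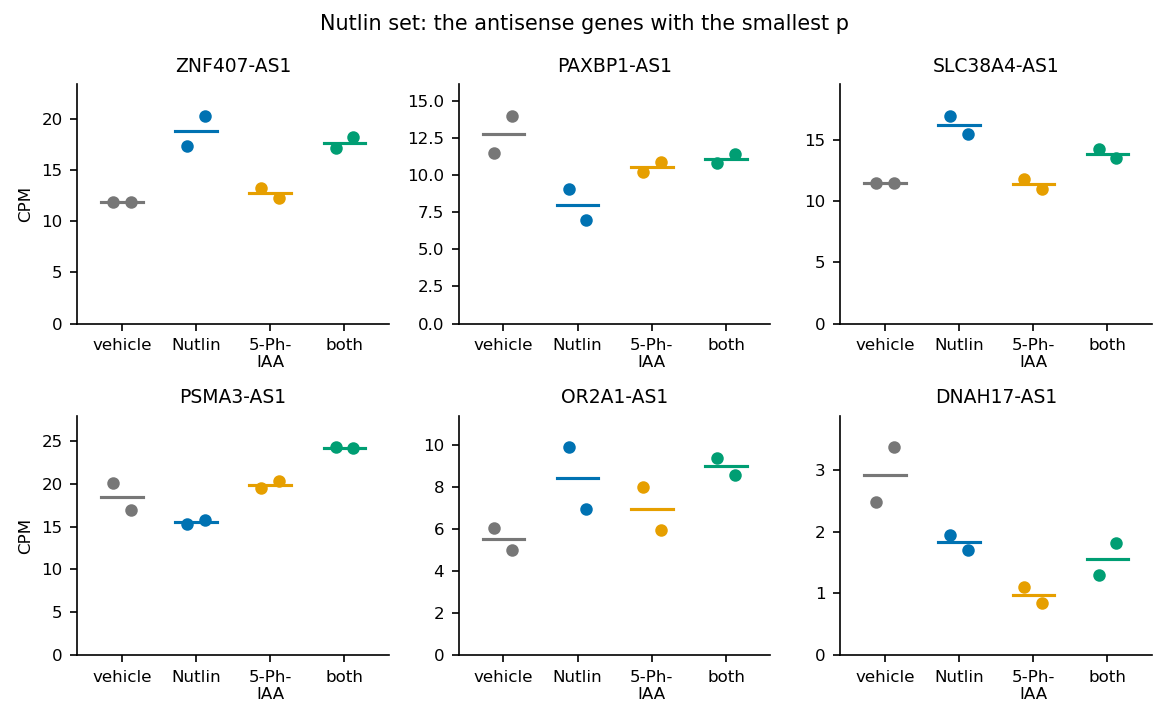
CPM in each library of the Nutlin set (points) with the mean of each group (line), for 6 antisense genes with the smallest p in its comparisons with vehicle. The vertical axes start at 0. In the panel of ZNF407-AS1 the 4 libraries with Nutlin lie between 17.1 and 20.3 CPM and the 4 without it between 11.9 and 13.2.

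At the edge of the count rule, 12 members had a lowest count of exactly 10, among them ARRDC3-AS1, BCAR3-AS1 and CAPN1-AS1. Just outside lay INO80D-AS1 at 9.67, RNF217-AS1 at 9.27 and SLC25A25-AS1 at 9.25.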

How the data were processed

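RNA was sequenced from 14 libraries (7 groups, n = 2) with a stranded, ribosomal RNA-depleted total RNA kit, per the labels' protocols. Each library's deposited table gives, per the file headers, an expected count and a TPM value per gene, in the columns that RSEM writes. The submitters' processing notes name RSEM, STAR 2.7.10b, DESeq2 1.48.1 and GRCh38, with no role given, so what the authors did beyond this is not known here. The strand setting and annotation release are not given in the sources used here.

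Symbols were matched by unversioned identifier (61463 matched), and positions come from GENCODE 29. Expected counts were rounded, and each set was fitted separately in edgeR 4.0.16 (R 4.3.3) by the quasi-likelihood test with TMM factors and 1 coefficient per group. The filterByExpr settings were 10 for a library and 15 in total. The genes tested numbered 19049 for the time course, 17251 for the Nutlin set and 18873 for the 3 h libraries of both. P-values are two-sided and Benjamini-Hochberg adjusted over all genes tested, at 0.05. Where members with an unadjusted p under 0.05 are counted, the share of all genes at that cut is not given. CPM are TMM-scaled within a set, and fold changes are log2. Ratios of antisense to sense genes were tested with limma 3.58.1 over all pairs (585 and 498), with the voom weights of both genes combined.

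Alternatives were DESeq2 1.42.0, RLE factors, no filter, a replicate block, fewer or more libraries in the fit, other membership rules, and each library left out. The scripts were tested on simulated data. Same-numbered libraries did not deviate together (correlations from -0.0888 to 0.047), so the numbers were not taken as pairs.

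The members and gene lists were chosen with earlier results of these data known. The genes named are, per comparison with vehicle, the members that passed or else the 3 with the smallest p, the 6 with the highest TPM, the 2 highest of each arrangement, a list of well-described members, up to 5 pairs in each direction whose ratio passed, their sense genes, and those at the edge of the count rule. The other 6 pairs with a raised ratio, the other sense genes, DNAH17-AS1 in the time course, TMPO-AS1 with Nutlin, and ZNF674-AS1 and ARRDC3-AS1 beside their sense genes were chosen after their values were seen.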

Additional observations from a re-analysis of the deposited data

Results flagged for a closer look

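The effect of 5-Ph-IAA differed between 12 h and 3 h in 8 members, by edgeR's test of 12 h against 3 h (adjusted p under 0.05), and all 8 were higher at 12 h. For comparison, 8.14% of all genes were called, 2.35% higher and 5.79% lower. The log2 differences were 1.19 for BCAN-AS2, 1.08 for GPRC5D-AS1, 1.04 for PPM1F-AS1, 0.87 for POC1B-AS1, 0.77 for URB1-AS1, 0.60 for TAGAP-AS1, 0.59 for GABPB1-AS1 and 0.43 for ZFPM2-AS1. Of these, GABPB1-AS1, GPRC5D-AS1, PPM1F-AS1 and TAGAP-AS1 were also called against vehicle. URB1-AS1 had 14.2 and 11.9 CPM in vehicle, 13.7 and 10.4 at 3 h, and 22.7 and 16.7 at 12 h. ZFPM2-AS1 had 29.6 and 27.3 CPM in vehicle, 25.8 and 26.8 at 3 h, and 36.4 and 34 at 12 h. BCAN-AS2 had 4.51 and 4.31 CPM in vehicle, 3.05 and 2.56 at 3 h, and 5.54 and 7.67 at 12 h. Without replicate 1 at 12 h no member was called, 5 were without replicate 2, and 2 without either library at 3 h. How the membership rule bears on these values through 12 h replicate 2 was not tested.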

How the results depend on the processing

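Counts of members called by edgeR moved with single libraries and with other choices. The shares of all genes called in these fits are not given here, so the counts are not read as a trait of the members. Leaving out each library in turn gave 0 to 1 members at 3 h, 3 to 15 at 12 h (9 with all libraries), 0 to 5 for 12 h against 3 h (8), 0 to 17 for Nutlin (0), 0 to 9 for the interaction (0), 0 to 1 for the difference between sets (0) and 0 to 16 for Nutlin averaged over both arms (1). For ratios it gave 0 to 2 at 3 h (1), 0 to 14 at 12 h (13) and 0 to 2 with Nutlin (0). Where a library is left out its group has 1 library, which is assumed to vary like the others. Without the low-count filter 15 members were called at 12 h and 1 with Nutlin. With the compared groups only, 5 were called at 12 h, 2 with both agents, and 2 ratios at 12 h. Leaving out members with exons over an opposite-strand gene, an alternative added after seeing the data, left 0 at 12 h and 2 for 12 h against 3 h, with fewer members counted. Leaving out pairs with overlapping exons left 0 ratios at 3 h and 3 at 12 h, and limma-trend called 0 at both times. The ratio of THAP9-AS1 ranged from -0.20 to 1.16 and that of TMEM44-AS1 from -0.82 to 1.94 over the left-out libraries, the lowest in each without replicate 1 at 12 h. The cause of these changes was not tested. With the replicate number as a block, 13 members were called at 12 h, 8 of the 9 among them, with 7 ratios at 12 h and 0 at 3 h. Single genes and ratios kept their direction and side of the threshold in 241 of their alternatives, missed it in 120, passed it anew in 6 and turned direction in 2. Depth limits the members most in replicate 2 at 12 h, where the median count was 23.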
